A study of Mus musculus with 2 samples.

Results

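Golgi structure, tether and SNARE genes were described in brain RNA of a GPHR F/F;Nes sample and of its GPHR F/F littermate control. The group holds 36 listed genes, taken as every non-control probe on the array whose gene name is a listed one. All 36 were found, on 68 probes, out of 37074 gene names on the array. They fall into 12 golgins and other coiled-coil tethers, 2 stacking proteins, the 8 subunits of the conserved oligomeric Golgi (COG) complex, 8 Golgi SNAREs and 6 other Golgi proteins.

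The Golgi apparatus is a stack of flattened cisternae through which secretory and membrane proteins pass on their way from the endoplasmic reticulum. Long coiled-coil proteins (golgins) and the COG complex catch incoming vesicles, SNAREs on both membranes then pull the bilayers together, and the GRASP proteins hold cisternae to one another and link stacks into a ribbon. In neurons the same machinery supplies axons and dendrites, in part from Golgi outposts in dendrites. GPHR, encoded by Gpr89, is the Golgi pH regulator. It lets anions cross Golgi membranes and so supports acidification of the lumen.

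The study, on the loss of GPHR in the brain, measured total RNA on 1-colour Agilent arrays in 2 brain samples of C57BL/6J mice at postnatal day 10, 1 of the genotype GPHR F/F;Nes and 1 littermate control of the genotype GPHR F/F. Both carry GPHR F/F, and Nes, which the labels do not spell out, is the labelled difference. The sources used here do not say whether a sample is 1 animal or a pool. With 1 array a group there is no replicate check and no test between genotypes.

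Differences are given as log2 values, GPHR F/F;Nes less GPHR F/F, so a positive one means a higher relative signal in GPHR F/F;Nes. A level is the log2 signal minus the 75th percentile of that array's probes, so 0 is a signal at that percentile. The ± value is the error that the scanner software assigns, which is technical and leaves out differences between animals. A gene counted as called when it differed at least 2-fold. Levels of different genes come from different probes and are not compared. Brain RNA is a mixture, so a change in the number of cells of a type and a change in RNA per cell cannot be told apart.

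The 75th percentile was 173.4 units in GPHR F/F;Nes and 259.5 units in GPHR F/F, and 0 spots were saturated on either array. Gpr89 had 20.04 units in GPHR F/F;Nes and 43.3 units in GPHR F/F (difference -0.53 ± 0.22) on 1 probe. The labels do not state which part of the gene was altered, so whether that probe lies within it is unknown. The source of the remaining Gpr89 signal was not tested. Xist had 234.1 units in GPHR F/F;Nes and a signal not well above background in GPHR F/F. Ddx3y, Eif2s3y, Uty and Kdm5d, on the Y chromosome, had probes well above background in GPHR F/F alone. Another Kdm5d probe was well above background on both arrays, with 135.9 units in GPHR F/F;Nes and 155.0 units in GPHR F/F. With these Xist and Y-linked signals, sex and genotype cannot be told apart.

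No member was called in either direction. Among the 23948 genes that both arrays measured, 7.93% passed 2-fold upward in GPHR F/F;Nes and 1.37% downward, 9.3% in all. Of the 5308 genes whose mean level lay between the quartiles of the members' levels, 205 were 2-fold higher and 73 lower. At a 1.5-fold threshold 1 member was higher, Golim4, and 0 were lower, against 18.1% and 5.69% of all genes. Of the 5308 genes of like level, 548 were 1.5-fold higher and 323 lower. Of the 36 members, 27 lay above 0 (75%), against 57% of all genes. The members' median was 0.19, the quartiles were 0.0028 and 0.29, and the extremes were Cog1 at -0.30 and Golim4 at 0.94. Over all genes the median was 0.07. The spread of the members (SD 0.26) was smaller than that of all genes (SD 0.57) and of the 5308 genes of like level (SD 0.49). Averaging over probes narrows a spread. Among genes with 2 or more measured probes the SD was 0.29 for members and 0.43 for all such genes.

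The sign of the median differed with how the arrays were scaled. In raw units 62 of the 67 measured member probes were dimmer in GPHR F/F;Nes, as were 83.0% of all measured probes, and dividing by the 75th percentile added 0.58 to every difference. With each array centred on its median the members' median was -0.087 and that of all genes -0.20. The members' median lay 0.11 above that of all genes with the 75th percentile and with median centring. Each scaling subtracts a constant per array, so that distance could not differ between them. That distance was 0.05 to 0.20 under the other settings tried, except with no filter on dim probes, where it was -0.08.

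**Figure D1:**
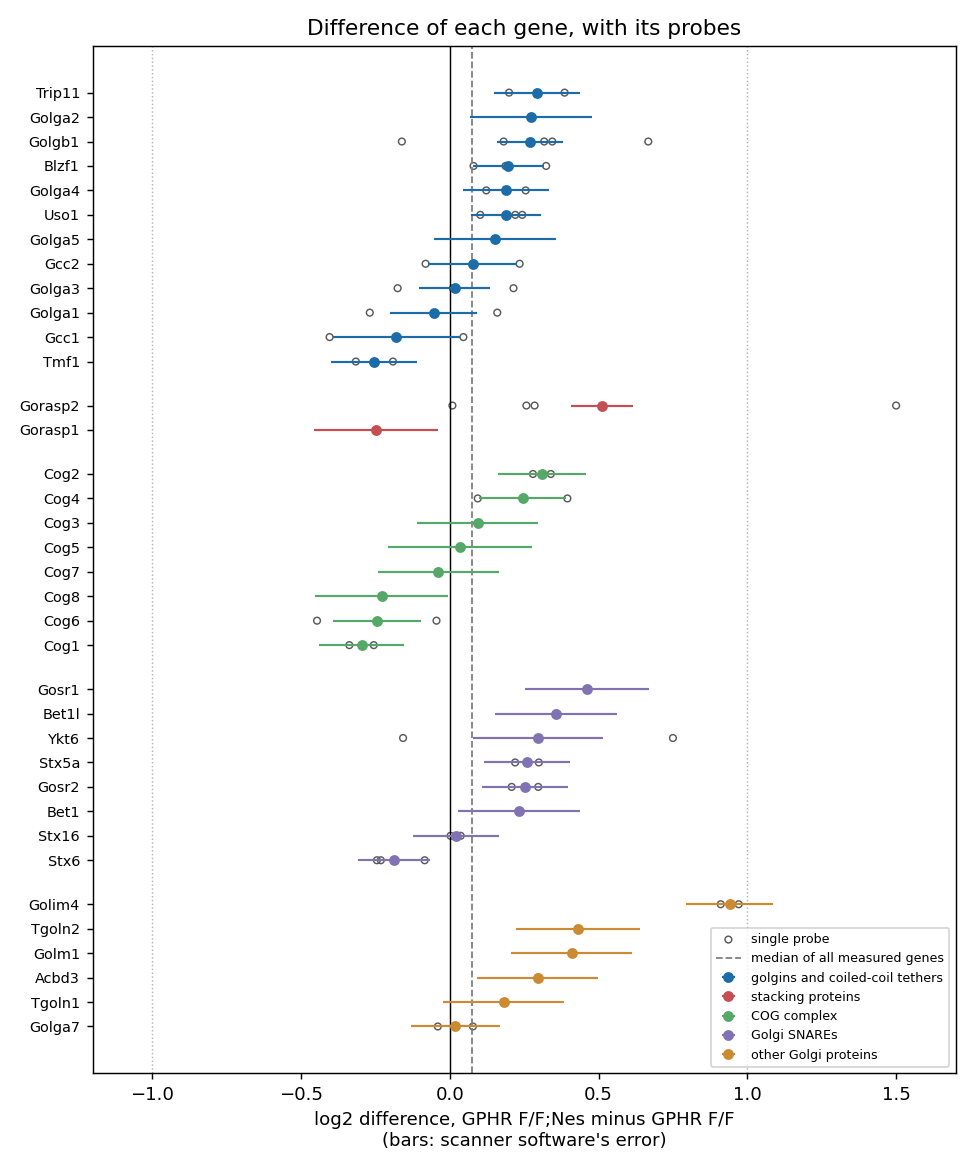
Difference of each of the 36 genes (x axis, log2, GPHR F/F;Nes less GPHR F/F), grouped by class and ordered within it. Filled points are gene means over probes with the scanner software's error as bars, open points are single probes, the dashed line is the median of all measured genes (0.07) and dotted lines mark 2-fold. No gene mean reaches 2-fold, Golim4 stands at 0.94, and 1 probe of Gorasp2 lies at 1.5.

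Among the golgins and coiled-coil tethers, 9 of 12 lay above 0 and the class median was 0.17. Trip11 (GMAP-210), which catches vesicles at the cis face, had a level of -0.58 in GPHR F/F;Nes, against -0.87 in GPHR F/F, a difference of 0.29 ± 0.14. Golga2 (GM130), the cis-Golgi golgin that binds Uso1 and Gorasp1, had a level of 4.01 in GPHR F/F;Nes, against 3.73 in GPHR F/F, and differed by 0.27 ± 0.20. Uso1 (p115), the tether for vesicles from the endoplasmic reticulum, had a level of 0.54 in GPHR F/F;Nes, against 0.35 in GPHR F/F. Its difference was 0.19 ± 0.12, and its 3 probes lay close together (SD 0.08). Blzf1 (golgin-45), the partner of Gorasp2, was at 0.20 ± 0.12 over 3 probes. Golga5 (golgin-84), a membrane-anchored golgin of the cisternal rims, was at 0.15 ± 0.20, less than its error from 0.

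Golgb1 (giantin), the large membrane-anchored golgin that binds Acbd3, had a mean of 0.27 ± 0.11 over 5 probes that disagreed (SD 0.30). Its 3 probes to the curated mRNA lay at 0.18, 0.32 and 0.34. The other 2 probes lay outside that range, at -0.16 for the brightest, with 1248 units in GPHR F/F;Nes and 2088 units in GPHR F/F, and at 0.67 for the dimmest, with 9.50 units in GPHR F/F;Nes and 8.95 units in GPHR F/F. Without the dimmest probe Golgb1 was at 0.17. Golga3 (golgin-160), with 3 probes between -0.18 and 0.21, averaged 0.02 ± 0.12.

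The golgins with a GRIP domain, which act at the trans-Golgi network, had a median of 0.01, against 0.19 for the other 8 tethers. Golga4 (golgin-245) had a level of 2.80 in GPHR F/F;Nes, against 2.61 in GPHR F/F, and a difference of 0.19 ± 0.14. Gcc2 (GCC185) was at 0.08 ± 0.15, Golga1 (golgin-97) at -0.05 ± 0.15 and Gcc1 (GCC88) at -0.18 ± 0.21. Gcc2, Golga1 and Gcc1 each had 2 probes on opposite sides of 0, so their direction was not settled. Tmf1, a golgin that captures vesicles moving within the Golgi, had the lowest difference of the tethers. Its level was 0.18 in GPHR F/F;Nes, against 0.43 in GPHR F/F, and both of its probes were below 0 (-0.19 and -0.32, mean -0.25 ± 0.14).

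The 2 stacking proteins lay on opposite sides of 0. Gorasp2 (GRASP55), of the medial and trans cisternae, had a mean level of -0.52 in GPHR F/F;Nes, against -1.03 in GPHR F/F, and a difference of 0.51 ± 0.10. Gorasp1 (GRASP65), of the cis cisternae, had a level of -1.75 in GPHR F/F;Nes, against -1.498 in GPHR F/F, and a difference of -0.25 ± 0.21 on its 1 probe.

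The value of Gorasp2 was set by 1 of its 4 probes, so their sequences are shown in order along the gene (plus strand of chromosome 2, mm9, in lower case throughout, whole probes of 60 bases or their first 30 bases).
A_55_P2740857, chr2:70521026-70521085: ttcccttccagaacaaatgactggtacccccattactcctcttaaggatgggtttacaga
A_55_P2018507, chr2:70526459-70526518: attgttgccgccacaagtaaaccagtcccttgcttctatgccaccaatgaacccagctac
A_55_P2903880, chr2:70527352-70527411, first 30 bases: gagcccgggtatgttgcatgccttaccttc
A_51_P173197, chr2:70529411-70529470, first 30 bases: cctagtgcccacatgcaacatttcttgtac
The third, the only one designed to the Ensembl transcript ENSMUST00000112205, had 56.6 units in GPHR F/F;Nes and 29.95 units in GPHR F/F, a difference of 1.5 ± 0.22. The others, all to the curated mRNA NM_027352, lay at 0.26, 0.29 and 0.01, the last for the brightest probe, with 911.6 units in GPHR F/F;Nes and 1356 units in GPHR F/F. Without the Ensembl probe Gorasp2 was at 0.18, close to the median of the 36 genes. Which exons the probes match was not analysed here.

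The COG complex, a tether of vesicles that return resident glycosylation enzymes to earlier cisternae, had the lowest class median, -0.0023, with 4 subunits above 0 and 4 below. Its subunits form 2 lobes. In lobe A, Cog2 had a level of -0.54 in GPHR F/F;Nes, against -0.84 in GPHR F/F, and a difference of 0.31 ± 0.15 on 2 probes that lay close together. Cog4 was at 0.24 ± 0.15 and Cog3 at 0.09 ± 0.20. The brighter probe of Cog4, to its curated mRNA, lay at 0.09 and the dimmer one, to an Ensembl transcript, at 0.40. Cog1, which joins the lobes, had the lowest difference of all 36 genes, with a level of 1.28 in GPHR F/F;Nes against 1.58 in GPHR F/F. Its dimmer probe had 237 units in GPHR F/F;Nes, against 423 units in GPHR F/F, and its brighter one 752 units in GPHR F/F;Nes, against 1422 units in GPHR F/F. Both lay below 0 (-0.26 and -0.34), for a mean of -0.30 ± 0.14.

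Lobe B had a median of -0.13, against 0.17 for lobe A. Cog8 had a level of -2.96 in GPHR F/F;Nes, against -2.73 in GPHR F/F, a difference of -0.23 ± 0.22. Cog6 was at -0.25 ± 0.15 on probes at -0.04 and -0.45, Cog7 at -0.04 ± 0.20 and Cog5 at 0.03 ± 0.24. Cog5 and Cog8 were dim, with 16.96 units for Cog5 in GPHR F/F;Nes, against 24.8 units in GPHR F/F, and 22.3 units for Cog8 in GPHR F/F;Nes, against 39.2 units in GPHR F/F. Genes as dim as these were mostly above 0: the median of genes within 0.25 of the same mean level was 0.35 for Cog5 and 0.27 for Cog8. Set against those medians, Cog8 was 0.50 lower and Cog5 0.31 lower.

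Of the 8 Golgi SNAREs, 7 lay above 0, with a class median of 0.26. The SNAREs of the early Golgi pair with syntaxin 5. Stx5a (syntaxin 5) had a level of 1.62 in GPHR F/F;Nes, against 1.36 in GPHR F/F, and a difference of 0.26 ± 0.14. Its partners in fusion with vesicles from the endoplasmic reticulum, Gosr2 (membrin) and Bet1, were at 0.25 ± 0.15 and 0.23 ± 0.20. Its partners within the stack were Gosr1 (GS28) at 0.46 ± 0.21, Bet1l (GS15) at 0.36 ± 0.20 and Ykt6 at 0.30 ± 0.22. Gosr1 had a level of -1.75 in GPHR F/F;Nes, against -2.21 in GPHR F/F, on 1 probe. Its difference was 0.16 with normexp and quantile normalization, where Bet1l was at 0.38.

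The mean of Ykt6, a lipid-anchored SNARE, came from probes that disagreed. The probe to its curated mRNA had 400.4 units in GPHR F/F;Nes and 668.1 units in GPHR F/F, a difference of -0.16, and a dim probe to an Ensembl transcript, with 8.39 units in GPHR F/F;Nes and 7.47 units in GPHR F/F, one of 0.75 ± 0.39. Without the dim probe Ykt6 was at -0.16, on the other side of 0. The SNAREs of the trans-Golgi network fuse with carriers from endosomes. Stx16 (syntaxin 16) was at 0.02 ± 0.14, with both probes within 0.04 of 0. Stx6 (syntaxin 6) had a level of -0.79 in GPHR F/F;Nes, against -0.60 in GPHR F/F, and its 3 probes all lay below 0 (mean -0.19 ± 0.12).

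The 6 other Golgi proteins all lay above 0, with the highest class median, 0.35. Golim4 (GPP130) is a membrane protein that cycles between the cis-Golgi and endosomes, and in cultured cells it leaves the Golgi when the lumenal pH is raised. It had the highest difference of the 36 genes, with a level of 0.04 in GPHR F/F;Nes against -0.90 in GPHR F/F (0.94 ± 0.15, 1.92-fold higher), and 91.2% of all measured genes lay below it. Its 2 probes, whose sequences are shown because they sample distant parts of the gene on the minus strand of chromosome 3 (mm9), gave nearly the same value.
A_52_P607372, chr3:75715526-75760047: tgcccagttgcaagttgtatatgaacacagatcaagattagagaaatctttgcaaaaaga
A_55_P1994348, chr3:75680597-75680656, first 30 bases: caattgtgtatgtatgcataggaaatgttc
The match of the first is split over 44522 bp of the genome. It had 72.6 units in GPHR F/F;Nes and 55.4 units in GPHR F/F, a difference of 0.97 ± 0.21. The second had 436.5 units in GPHR F/F;Nes and 347.5 units in GPHR F/F, a difference of 0.91 ± 0.20. These were thus among the 5 member probes that were brighter in GPHR F/F;Nes in raw units as well.

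Golm1 (GP73), which also cycles between the Golgi and endosomes, had a level of 1.78 in GPHR F/F;Nes, against 1.37 in GPHR F/F, and a difference of 0.41 ± 0.20. Tgoln1 and Tgoln2, array names for the trans-Golgi network protein TGN38, which cycles to the cell surface, were at 0.18 ± 0.20 and 0.43 ± 0.21. Their probes lie on the same strand of chromosome 6 within 2318 bp of each other (mm9), and the RefSeq table of GRCm38.p6 lists Tgoln1 alone, so the values may not be those of separate genes. Acbd3 (GCP60), an adaptor that binds giantin, was at 0.30 ± 0.20. Golga7 (GCP16), the partner of a palmitoyltransferase and not a golgin despite its symbol, was at 0.02 ± 0.15. Its brighter probe lay at -0.04 and its dimmer one at 0.08, so its direction was not settled.

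**Figure D2:**
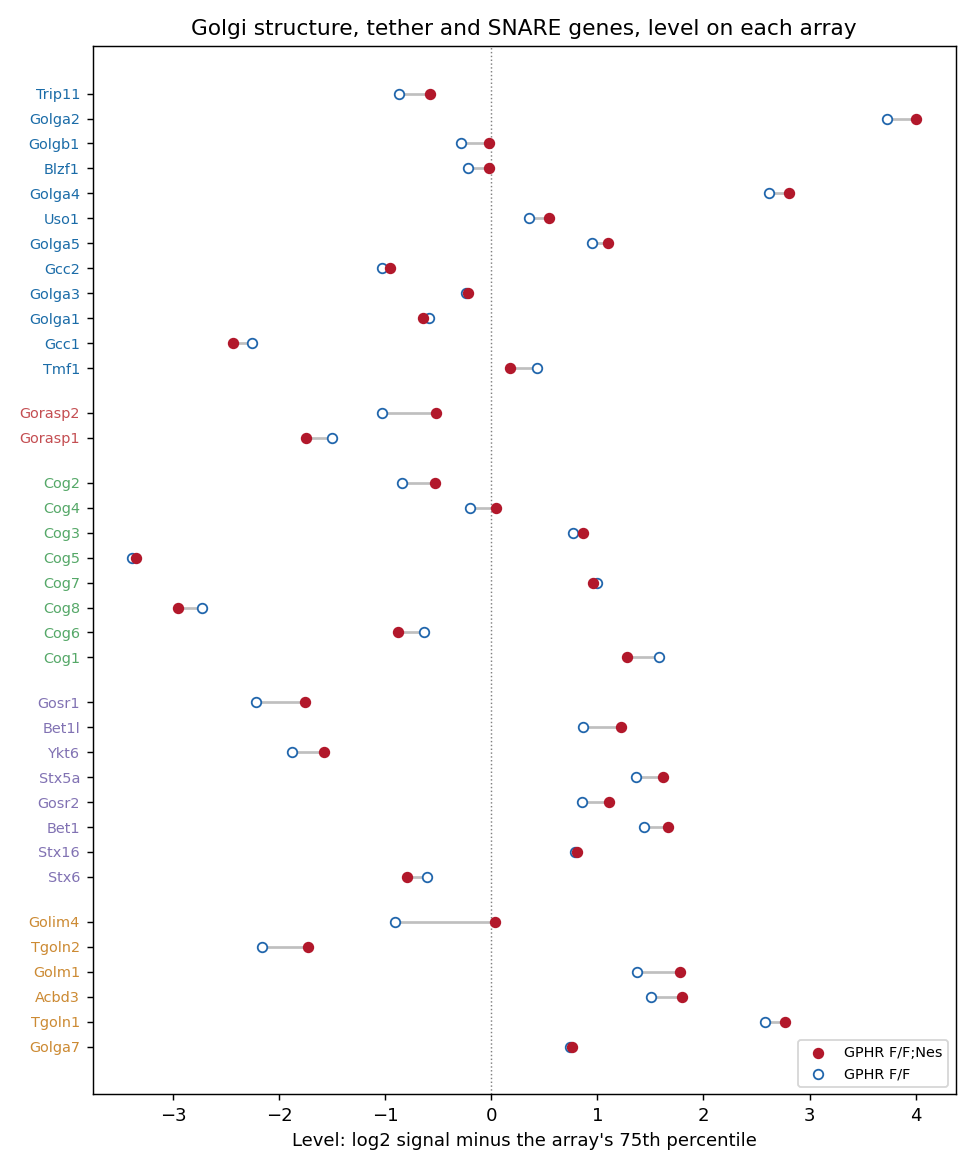
Level of each of the 36 genes on each array (x axis, log2 signal minus that array's 75th percentile), with GPHR F/F;Nes as filled and GPHR F/F as open points, and gene names coloured by class. The distance between the 2 points of a gene is its difference, largest for Golim4 (0.04 in GPHR F/F;Nes and -0.90 in GPHR F/F); levels of different genes come from different probes and are not comparable.

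The spread between probes was small for most members. Of the 22 genes with several measured probes, 11 had all of them above 0, 4 all below 0 and 7 on both sides. The median SD between probes of a gene was 0.11, against 0.20 over the 8137 genes of the array with several measured probes. Gorasp2 (0.67) and Ykt6 (0.64) had the largest SDs. The 12 probes to transcripts other than curated mRNAs had a median of 0.23 and the 55 to curated mRNAs one of 0.12. The brightest probe of a gene had its lowest difference in 14 of the 22 genes (63.6%), against 48.5% of all such genes. With the scanner software's error as the yardstick, 8 members lay above 0 by more than 2 errors and 1 below. The share of all measured genes beyond 2 errors was not counted, so these counts cannot be set against the array.

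Differences on these arrays depended on signal. The median of all genes was 0.41 in the dimmest of 20 level bins and -0.12 in bin 18. The members sat mainly among the brighter genes, 29 of 36 in bins 11 to 20. Against the median of genes within 0.25 of the same mean level, 27 members were higher and the median distance was 0.24. Golim4 was 0.95 above that median, Golm1 0.49, Gorasp2 0.48, Bet1l 0.44 and Acbd3 0.38. The other 9 lay below it: Cog8 and Cog5, as given above, Gcc1 (-0.38), Gorasp1 (-0.34), Cog6 (-0.27), Cog1 (-0.21), Stx6 (-0.20), Tmf1 (-0.20) and Golga1 (-0.06).

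**Figure D3:**
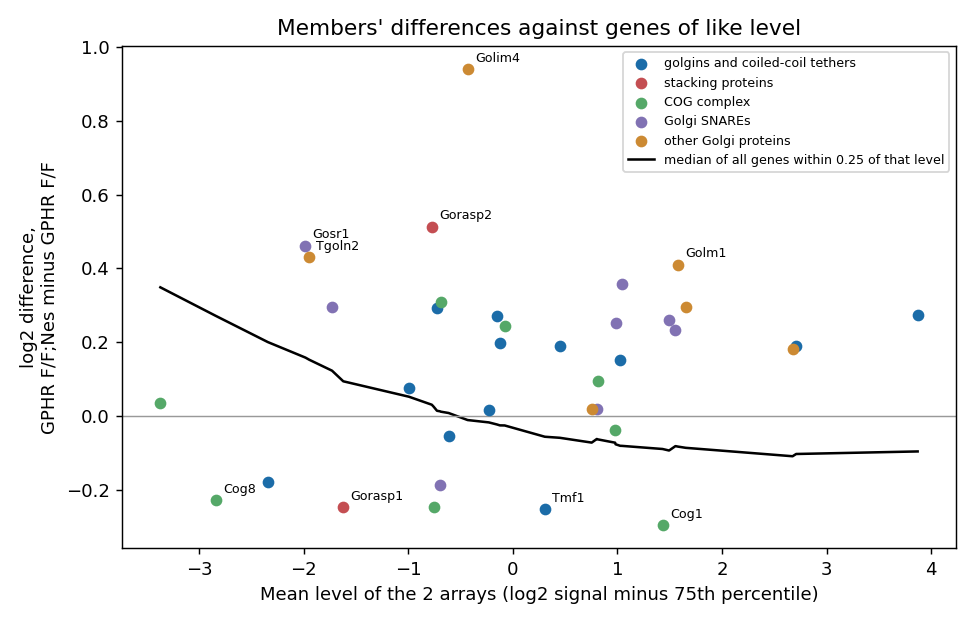
Difference of the 36 genes (y axis, log2, GPHR F/F;Nes less GPHR F/F) against their mean level on both arrays (x axis), coloured by class. The black line is the median of all measured genes within 0.25 of each level, which runs from 0.35 at the dimmest member to -0.10 at Golga2, the brightest; 27 of 36 points lie above it.

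Other genes of tethering and fusion around the Golgi, 52 in all and all measured, had a median of -0.05, with 24 above 0 and 28 below. None was called in either direction, and at 1.5-fold 2 were higher and 0 lower. The GARP and EARP complexes, which tether endosome-derived carriers, had 5 of 5 subunits below 0 (median -0.18, from Vps50 at -0.53 ± 0.14 and Vps51 at -0.34 ± 0.20 to Vps52 at -0.10 and Vps54 at -0.07). The TRAPP complexes, which tether early secretory vesicles and activate Rab GTPases, had a median of -0.03 over 14 genes, with Trappc6a (0.19) and Trappc10 (0.14) highest and Trappc2 (-0.47 ± 0.15) and Trappc13 (-0.45 ± 0.15) lowest. The Dsl1 complex, which receives COPI vesicles at the endoplasmic reticulum, had a median of 0.11 over 3 genes.

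Other SNAREs and their regulators had a median of -0.05 over 20 genes, against 0.26 for the 8 Golgi SNAREs. Vamp3 (0.70 ± 0.15), of recycling endosomes, and Snap23 (0.70 ± 0.11), of the plasma membrane, were highest, and Stx7 (-0.48 ± 0.20), of late endosomes, and Nsf (-0.42 ± 0.10), the ATPase that takes SNARE complexes apart, lowest. Golgi GTPases and adaptors had a median of 0.05 over 10 genes. Arl1 (0.41 ± 0.14), a GTPase that recruits some of the GRIP golgins, and Golph3l (0.34 ± 0.20) were highest. Gopc (-0.42 ± 0.20) and Bicd1 (-0.23 ± 0.15) were lowest.

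Marker lists of several cell types had medians farther from 0 than any class of Golgi genes. All 6 neuronal markers lay below 0 (median -0.15), with a summed level, in multiples of the 75th percentile, of 60.5 in GPHR F/F;Nes, against 71.5 in GPHR F/F. Of the astrocyte markers 5 of 6 lay above 0 (median 0.38, sum 53.2 in GPHR F/F;Nes, against 52.8 in GPHR F/F). All 6 oligodendrocyte markers did (median 0.28, sum 3.13 in GPHR F/F;Nes, against 2.59 in GPHR F/F), as did the 4 measured microglia markers (median 1.46, sum 2.09 in GPHR F/F;Nes, against 1.3 in GPHR F/F). The endothelial list had 2 of 3 measured markers above 0 (median 1.23, sum 6.22 in GPHR F/F;Nes, against 2.71 in GPHR F/F). The list of meninges and fibroblasts had 5 of 6 (median 2.03, sum 9.88 in GPHR F/F;Nes, against 7.3 in GPHR F/F), and that of choroid plexus 4 of 4 (median 1.39, sum 5.58 in GPHR F/F;Nes, against 0.68 in GPHR F/F). These sums add probes of unlike brightness and mostly follow the brightest. In GPHR F/F;Nes, Aldoc (difference -0.22) gave 5979 of the 9227 units of the astrocyte list. Dcn (-0.07) gave 1071 of the 1714 units of the list of meninges and fibroblasts. In the other lists summed here the brightest marker lay on the same side of 0 as the median. The GPHR F/F;Nes array alone measured Tmem119 of microglia, Clic6 of choroid plexus and Slc4a1 of erythrocytes. P2ry12 of microglia, Cldn5, Cdh5 and Tek of endothelium and Kl of choroid plexus were not well above background on either array. Only 1 of 6 erythrocyte markers was measured on both arrays (Hba-a1, -0.28). The genes farthest from 0, 1 for each of the other 7 lists, were Rbfox3 of neurons (-0.88), Gfap of astrocytes (0.82), Mag of oligodendrocytes (0.77), Trem2 of microglia (2.14), Flt1 of endothelium (1.35), Slc6a13 of meninges and fibroblasts (2.84) and Ttr of choroid plexus (5.35). Some of these markers were dim in GPHR F/F, such as Mobp (16.6 units), C1qa (12.1 units) and Slc6a13 (11.6 units). Genes that dim were mostly above 0, and the markers were not set against genes of like level. The part of these cell types in the Golgi gene values was not tested.

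**Figure D4:**
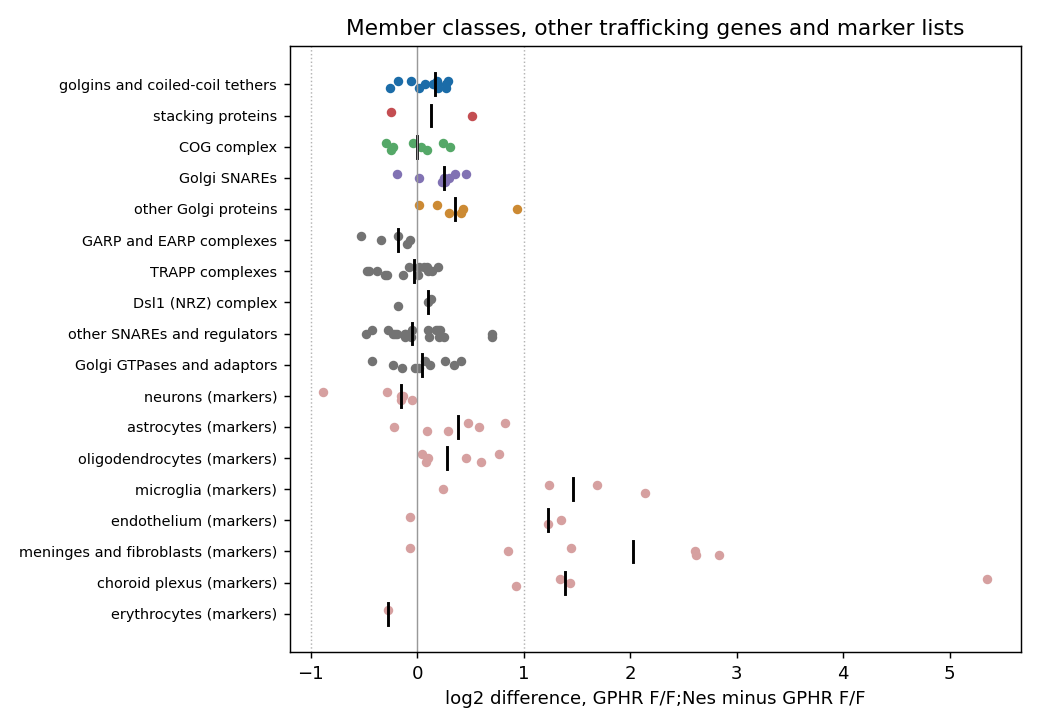
Difference of single genes (points, x axis, log2, GPHR F/F;Nes less GPHR F/F) in the 5 member classes (colours), 5 lists of other trafficking genes (grey) and 8 lists of cell type markers (pink), with each list's median as a black bar. Member classes lie within 2-fold (dotted lines), with medians from -0.0023 to 0.35, whereas marker medians reach 2.03.

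Promoter sequences from RefSeq (GRCm38.p6, 250 bases before to 50 after the start) were matched for 31 of the 36 genes, and not for Golga4, Golgb1, Golga7, Tgoln2 and Acbd3. ACGTGGC, the Golgi apparatus stress response element that TFE3 binds in human cells, was searched on both strands. It was in 4 member promoters, 12.9% of the genes, against 2.95% of all 27025 genes and 4.06% of the 12944 genes with a promoter that were measured here. For each of the 4 genes, a stretch on the strand of the gene is shown, with matches to the reverse complement of the motif in capitals. Stx5a has another match, in the motif's own orientation and also after the start, which is not shown.
Uso1, chr5:92137870-92137909: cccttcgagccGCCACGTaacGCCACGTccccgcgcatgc
Cog3, chr14:75754597-75754626: ctccgtcgaaaGCCACGTctgttttggcct
Golga3, chr5:110176873-110176902: ccccttgcacaGCCACGTcctaccggagcc
Stx5a, chr19:8741421-8741450: gtggcgcagcaGCCACGTcaccgagttagg
Cog3 lies on the minus strand and the others on the plus strand. The median difference of the 4 genes was 0.14 (Uso1 0.19, Cog3 0.09, Golga3 0.02, Stx5a 0.26), against 0.18 for the 27 members without a match. TGACGT, the core that CREB family factors bind, was in 8 member promoters (25.8%, against 11.7% of the measured genes), and the median difference was 0.20 for members with it and 0.18 for those without. In Stx5a it overlaps ACGTGGC. The E-box CACGTG was in 5 (16.1%, against 10.7%), with a median difference of 0.15 for those members (Golga5, Uso1, Gorasp1, Stx6 and Golim4) and 0.19 for the rest. The box CCAAT was in 15 (48.4%, against 42.3%), with a median difference of 0.24 for those members and 0.12 for the rest. A gene counted when any of its promoter sequences held the motif, and some genes had several. The shares of members and of all genes were not tested against each other. A match is a stretch of letters and not evidence of binding.

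**Figure D5:**
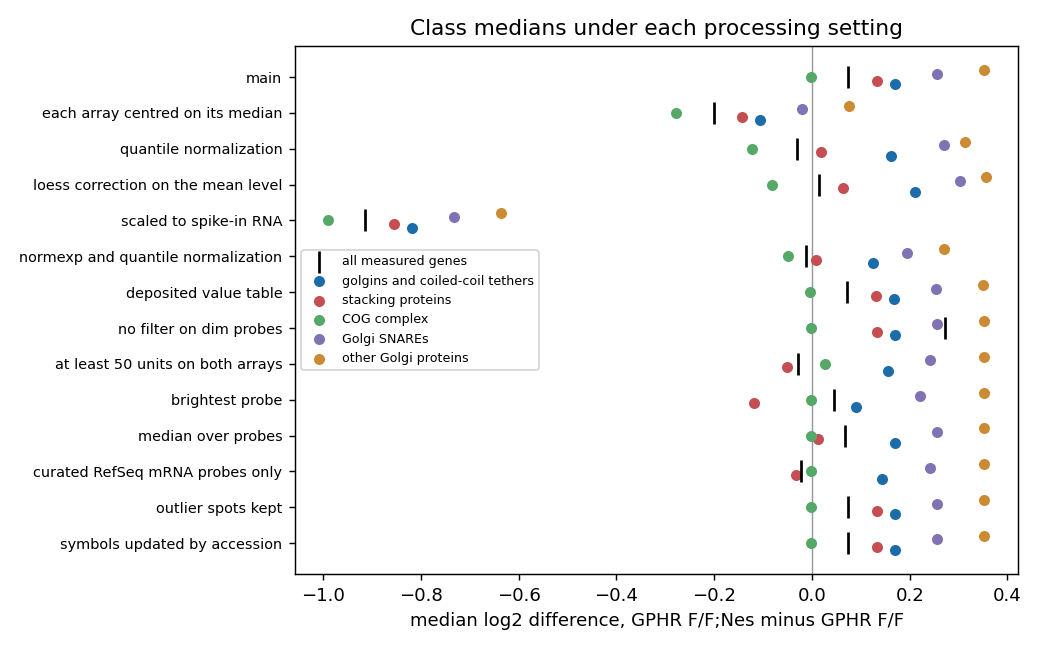
Median difference (x axis, log2, GPHR F/F;Nes less GPHR F/F) of the 5 classes (colours) and of all measured genes (black bars) under the main setting, at the top, and 13 alternatives. The classes and the black bar move together when arrays are rescaled; the other Golgi proteins lie to the right of the bar and the SNAREs do too, except with no filter on dim probes.

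The order of the classes was read under the 14 settings of that plot. Not all of them could change it. Median centring and spike-in scaling add a constant to every difference, and the deposited value table does so nearly. Keeping outlier spots and taking names by accession left the class medians almost as they were. The other Golgi proteins had the highest median and the Golgi SNAREs the next in each of them, and Golim4 ranked first among the members in all 14. The COG complex had the lowest median in 11 of them and the stacking proteins in the other 3. The sign of Golim4 held in all but the spike-in scaling, where it was at -0.05. Golim4 lay above the median of all genes by 0.62 to 0.97. Trip11, Cog2, Gosr1, Bet1l, Golm1, Tgoln2 and Acbd3 also lay above that median in all 14. Tmf1, Gorasp1, Cog1, Cog6 and Stx6 lay below it in all 14, and Cog8 in the 13 that measured it. Much of this was fixed in advance. Settings that add a constant could not move a gene across that median. Gosr1, Bet1l, Golm1, Tgoln2, Acbd3, Gorasp1 and Cog8 had 1 probe each. Settings that choose or average probes thus could not change their differences, only the median of all genes.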

How the data were processed

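The scans were read with Agilent Feature Extraction (version 11.5.1.1 in the submitters' processing notes). TRIzol RNA was Cy3-labelled by the Low Input Quick Amp method, per the labels' protocols. The authors' deposited scanner files hold a linear intensity per spot, with spatial and multiplicative detrending on and background correction off, per the file headers. Deposited flags, of other values 0 or 1, mark spots well above background, saturated or outlying. The authors' deposited value table is on the log2 scale and equalled log2 intensity plus 1 constant per array (-7.43 in GPHR F/F;Nes and -8.01 in GPHR F/F), within 0.001, for 99.9% of probes. Its column medians were -2.92 in GPHR F/F;Nes and -3.19 in GPHR F/F, it is not centred per probe, and how the constants were set is unknown.

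Outlier spots (51 non-control spots on each array) were left out, spots of 1 probe were averaged as log2, and each array's 75th percentile over 56603 probes was subtracted. The 36717 probes well above background on both arrays counted as measured, and a gene's value was the mean of its measured probes. Genes were taken by the array's gene name, Vps50 by accession. With 1 array a group, no test was made and precision is limited by that number. Each class was described by counts and medians beside all measured genes. All 36 members were named, and of the other trafficking lists the 2 highest and 2 lowest genes of each list with 5 or more measured. The members and lists were chosen with earlier results of these data known. Probe coordinates are mm9, per the file headers, and promoter sequences came from RefSeq (GRCm38.p6). Tools were R 4.3.3, limma 3.58.1, Python 3.11.15, pandas 2.3.3, numpy 2.4.6 and matplotlib 3.10.9. The calculation was tested on simulated arrays. Alternatives covered scaling, background correction, dim probes, probe choice, names and the threshold.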

Additional observations from a re-analysis of the deposited data

How the results depend on the processing

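No paired analysis was possible because each genotype had 1 array, and the arrays' number limits the precision of every value. Quantile normalization, loess, normexp, the deposited value table, no dim-probe filter, the median over probes, outlier spots kept and names by accession each left the member and class medians within the median scanner error of the genes concerned, and leaving out Golim4, chosen after seeing the data, left the member median at 0.19. Centring each array on its median moved all genes by -0.28: the medians were -0.087 for all members, -0.11 for golgins and tethers, -0.14 for stacking proteins, -0.28 for the COG complex, -0.020 for SNAREs and 0.077 for other Golgi proteins. Scaling to 8 spike-in probes moved all genes by -0.99, and the same medians were -0.80, -0.82, -0.86, -0.99, -0.73 and -0.64, with 9 members (25%) at least 2-fold lower, against 42% of all genes, and 0 higher (1.6% of all 2-fold genes were higher there, against 85.3% in the main setting, 57.1% with median centring, 68.6% with quantile and 74.8% with loess normalization). The stacking median, over 2 genes, was -0.050 with probes of at least 50 units, -0.12 with the brightest probe and -0.032 with curated mRNA probes, where the Ensembl probe of Gorasp2 falls away. The brightest probe gave a member median of 0.09. With no dim-probe filter the median of all genes moved by 0.20, and 10 members lay above it, against 23 in the main setting. At 1.5-fold 1 member was called higher. Leaving out single probes of Gorasp2, Ykt6 and Golgb1 was likewise chosen after seeing the data.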
